A study of Rattus norvegicus with 6 samples.

Results

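Heterotrimeric G proteins are the switches that receptors with several membrane passes turn on, and the RGS proteins (regulators of G protein signalling) turn them off again. The members described here are the genes of the alpha, beta and gamma subunits and of the RGS proteins. They were picked from the deposited FPKM table by a rule on their names, with earlier results of these data known. They make up 55 of its 22536 rows and carry 54 names, since the name Gnas stands on 2 rows. FPKM is a fragment count scaled to transcript length and to the depth of the library, so levels can be set side by side between genes.

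RNA sequencing was done on 3 male control rats and 3 male rats with painful diabetic neuropathy (PDN), the nerve damage with pain that can follow diabetes. Every library is labelled sensory neuron, and the title of the series places the work in the dorsal root ganglion, where the cell bodies of sensory neurons lie among satellite glia, Schwann cells, vessels and macrophages. The sources used here do not give the rats' age or strain, any treatment, or how diabetes was induced. The design text counts rats, so each library is taken as 1 animal. Constants from a second deposited table would imply 51856000 to 62785000 fragments per library, if its values scale with fragment counts, which was not checked. A set of 14 neuronal marker genes, among them Snap25, Uchl1 and Prph, summed to 9265 to 10702 FPKM in every library. Skeletal muscle markers were uneven. Their summed FPKM reached 590.4 for control 2, 189.9 for PDN 3 and 34.4 for PDN 1, whereas the other 3 libraries stayed at 2.10 to 2.29.

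An alpha subunit binds GTP when a receptor is activated and parts from the beta-gamma pair, and both parts then act on effectors. Gs and its relative Golf stimulate adenylyl cyclase, Gi and Go restrain it and free beta-gamma pairs that close calcium channels and open potassium channels, Gq and G11 switch on phospholipase C, and G12 and G13 act on guanine nucleotide exchange factors that shape the cytoskeleton. RGS proteins speed the hydrolysis of GTP by the alpha subunit, mostly of the Gi/o and Gq classes. In sensory neurons the Gi/o branch carries the effect of opioids and cannabinoids, and the Gs and Gq branches carry sensitisation by inflammatory mediators.

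Several members lie beside a relative on the chromosome, and in several such pairs 1 gene was expressed while its neighbour was near or at 0. Gna11, a Gq-class subunit found in most tissues, averaged 12.5 FPKM over the 6 libraries, and Gna15, a Gq-class subunit of blood cells 6895 bases away in the file's loci, averaged 0.384. Rgs2 averaged 10.8 FPKM, and its neighbour Rgs13, a gene of lymphocytes and mast cells, was listed at 0 in every library. The 250 bases before the start site of these 4 genes are shown with those of Rgs10 and Gng11, which had small p-values between the groups. They come from RefSeq, build GRCr8, and read 5′ to 3′ along the gene, with each CpG dinucleotide in capitals.

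Gna11 lies at chr7:8814035-8814284 on the plus strand, Gna15 at chr7:8835374-8835623 on the plus strand, Rgs2 at chr13:58352667-58352916 on the minus strand, Rgs13 at chr13:58505923-58506172 on the minus strand, Rgs10 at chr1:192418078-192418327 on the minus strand and Gng11 at chr4:32977431-32977680 on the plus strand, where each interval is the 250-base window.
Gna11: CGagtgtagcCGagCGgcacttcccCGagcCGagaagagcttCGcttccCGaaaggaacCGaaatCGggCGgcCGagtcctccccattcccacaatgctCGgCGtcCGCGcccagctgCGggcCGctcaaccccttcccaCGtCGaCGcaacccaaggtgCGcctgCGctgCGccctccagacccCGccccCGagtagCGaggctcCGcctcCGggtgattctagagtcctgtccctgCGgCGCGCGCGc
Gna15: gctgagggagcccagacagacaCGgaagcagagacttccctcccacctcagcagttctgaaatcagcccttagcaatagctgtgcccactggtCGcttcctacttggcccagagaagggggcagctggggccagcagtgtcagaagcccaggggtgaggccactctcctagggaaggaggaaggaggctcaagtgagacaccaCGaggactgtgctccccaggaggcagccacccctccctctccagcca
Rgs2: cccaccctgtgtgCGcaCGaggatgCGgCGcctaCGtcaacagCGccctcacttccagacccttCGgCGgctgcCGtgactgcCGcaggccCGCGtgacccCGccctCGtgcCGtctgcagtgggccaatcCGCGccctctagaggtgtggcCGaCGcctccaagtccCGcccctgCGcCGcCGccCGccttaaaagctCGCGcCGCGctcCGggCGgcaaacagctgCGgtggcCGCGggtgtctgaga
Rgs13: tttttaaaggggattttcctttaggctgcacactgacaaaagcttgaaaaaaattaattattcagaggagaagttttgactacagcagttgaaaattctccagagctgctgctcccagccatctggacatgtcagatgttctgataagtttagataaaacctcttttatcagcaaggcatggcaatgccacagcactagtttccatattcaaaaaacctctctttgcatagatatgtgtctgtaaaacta
Rgs10: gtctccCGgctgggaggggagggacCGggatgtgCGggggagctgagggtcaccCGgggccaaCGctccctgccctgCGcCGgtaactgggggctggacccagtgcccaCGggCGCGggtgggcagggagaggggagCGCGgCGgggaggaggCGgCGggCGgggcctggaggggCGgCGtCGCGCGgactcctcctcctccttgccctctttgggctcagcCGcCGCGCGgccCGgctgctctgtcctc
Gng11: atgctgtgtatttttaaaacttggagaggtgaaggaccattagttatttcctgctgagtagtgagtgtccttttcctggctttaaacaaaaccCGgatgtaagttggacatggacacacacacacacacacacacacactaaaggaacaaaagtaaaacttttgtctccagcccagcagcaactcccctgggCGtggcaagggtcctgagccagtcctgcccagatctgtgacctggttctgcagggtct

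The window of Gna11 held 33 CpG dinucleotides and that of Gna15 held 3. The Rgs2 window likewise held 33, and the Rgs13 window held 0. Rgs10 had 26 and Gng11 had 2. The neighbour pairs shown were picked from several, and the contrast varied among the others. Gnai1 and Gnat3 had 45 and 2 CpG at means of 40.9 and 0.0227 FPKM. Gngt1 and Gng11 had 1 and 2 at 0 and 3.98 FPKM, and Rgs9 and Gna13 had 21 and 37 at 0.649 and 30.4 FPKM. Over the 43 members with 1 window of their own, the median was 16.5 CpG in the 32 genes with a mean of at least 1 FPKM and 3 in the 11 below it. The same split over all 12677 genes matched by name gave medians of 17 and 4, so the members followed the pattern of the whole table. Exceptions were Gnb1, with 0 CpG at a mean of 336 FPKM, Gng12, with 0 at 2.94 FPKM, and Rgs9, with 21 at 0.649 FPKM, all chosen after their values were seen. The table may give a start site other than the one used in this tissue.

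Of short motifs searched on both strands of the 250 bases, the GC box GGGCGG was found in 22 of 43 members (51.2%) and in 50.6% of all genes matched by name. TATAAA was found in 5 members (11.6%), against 9.27% of all genes, and 1 of the 5 was Rgs4. The cyclic AMP response element TGACGTCA was found in 1 member, Gnao1 (2.33%), against 2.45% of all genes. The E box CACGTG was found in 3 members (6.98%), Gnai1, Rgs7 and Rgs19, against 7.39%. None of these motifs contains another. A match describes the letters of the window and is not a measured binding site.

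**Figure D1:**
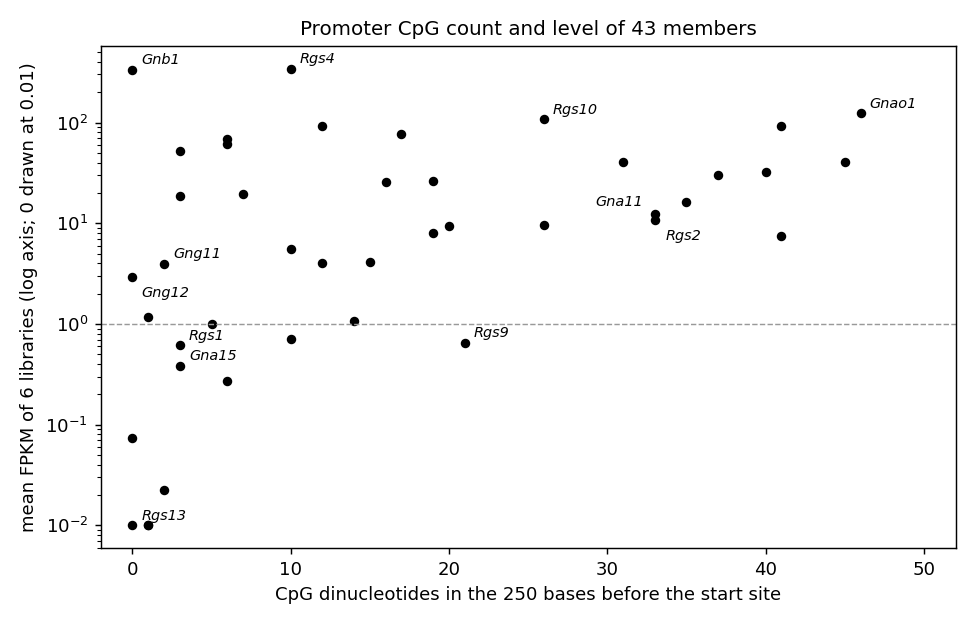
CpG dinucleotides in the 250 bases before the start site (horizontal axis, count) and the mean FPKM of the 6 libraries (vertical axis, log scale, with genes listed at 0 drawn at 0.01), 1 point per member with a RefSeq window (43 genes). Most members under the dashed line at 1 FPKM have few CpG, with Rgs9 the highest of them at 21, and Gnb1 is abundant with 0.

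The first question was how much of each subunit the tissue makes. A level of 1 FPKM or more in 3 or more libraries was reached by 40 of the 55 rows, which were tested between the groups, and the other 15 have values and no test. Summed over their genes, alpha subunits stood at 788 to 873 FPKM per library, beta subunits at 464 to 504, gamma subunits at 133 to 169.5 and RGS genes at 565 to 624. The ranges of the groups overlapped for each of these sums.

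**Figure D2:**
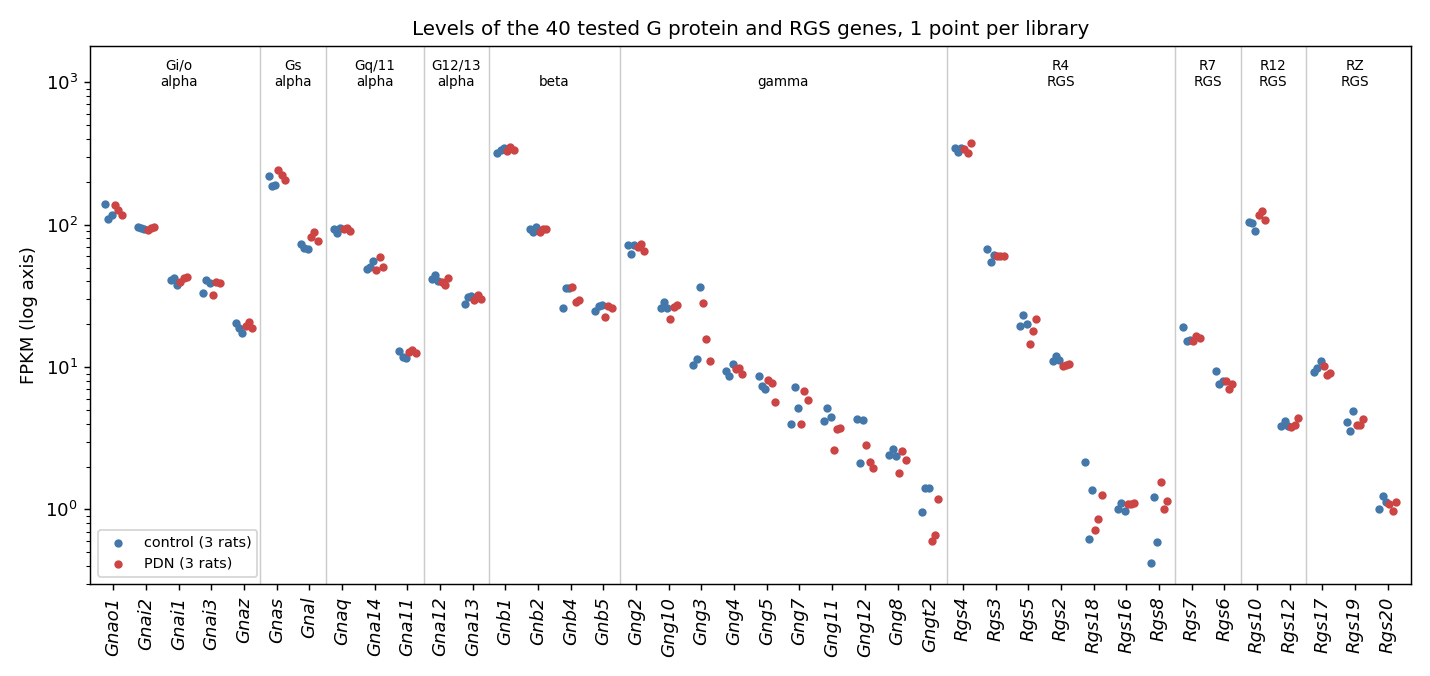
FPKM of the 40 tested members (vertical axis, log scale), 1 point per library, blue for control and red for PDN, grouped by subunit class and RGS subfamily and ordered by mean level within each. Gnb1 and Rgs4 lie highest in every library, and the groups lie on top of each other for most genes.

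The Gs class was led by Gnas, which encodes the stimulatory alpha subunit, and by Gnal, which encodes Golf, the form first known from olfactory neurons and the striatum. The main Gnas row (ENSRNOG00000047374, chromosome 3, 172385672 to 172434613 as the file gives it, without a build) was at 219, 186 and 191 FPKM in controls 1 to 3 and at 243, 223 and 205 in PDN 1 to 3. The highest control, number 1, lay between PDN 3 and PDN 2, so the groups overlapped. The difference on the log2(FPKM + 1) scale was 0.17 ± 0.09 (SE). Its 95% interval ran from -0.05 to 0.39, and limma gave it an adjusted p of 0.999. The difference was 0.106 without PDN 1. A second row named Gnas (ENSRNOG00000025889), whose locus overlaps the first by 42812 bases, was at 0.359 to 1.18 FPKM over the 6 libraries. The locus makes several transcripts from separate first exons, and the sources used here do not say how the authors divided fragments between the 2 rows.

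Gnal (ENSRNOG00000010440, chromosome 18, 62805410 to 62944630) was the member with the smallest p. It was at 73.6, 68.0 and 67.5 FPKM in controls 1 to 3 and at 81.8, 89.2 and 76.7 in PDN 1 to 3, so every PDN library lay above every control. Mean FPKM ± SD was 82.6 ± 6.26 for the 3 PDN libraries and 69.7 ± 3.40 for the 3 controls. The log2 difference was 0.24 ± 0.08 (SE), with a 95% interval of 0.06 to 0.42. The unadjusted p in limma was 0.0149 and the adjusted p 0.999, so the difference did not pass the threshold. Its share of all alpha subunit FPKM was 8.47% to 8.69% in controls and 9.35% to 10.2% in PDN. Of 14 neuronal markers 7 had a higher and 7 a lower estimate in PDN, and their sum ran from 9283 to 10702 FPKM in controls and from 9265 to 10255 in PDN. Isl1 and Uchl1 were the 2 of these markers whose groups did not overlap, both with higher values in PDN. Isl1 was at 21.1, 18.3 and 20.1 FPKM in controls and at 21.9, 23.7 and 21.9 in PDN. The part of neuronal content in the Gnal value was not tested. The locus of Gnal lies inside that of Mppe1 in the file, a gene at 5.65 FPKM in controls and 5.61 in PDN.

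**Figure D3:**
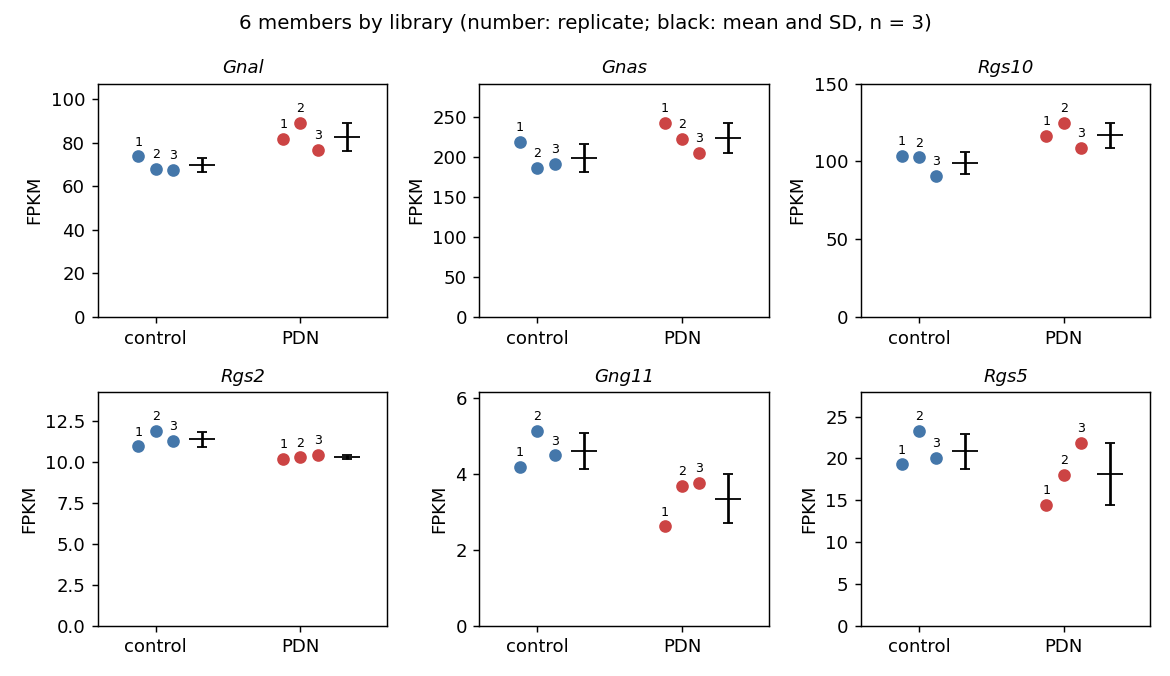
FPKM by library for Gnal, Gnas, Rgs10, Rgs2, Gng11 and Rgs5 (vertical axes from 0), 3 control and 3 PDN libraries each, with the replicate number above each point and the mean and SD in black. The groups do not overlap for Gnal and Rgs10, which are higher in PDN, or for Rgs2 and Gng11, which are lower, and they overlap for Gnas and Rgs5.

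The Gi/o class held 36.8% to 39.0% of the alpha subunit FPKM, more than the Gs class in every library except PDN 1, where Gs held 37.4% and Gi/o 36.8%. Gnao1, the Go subunit that couples receptors to calcium channels in neurons, was at 139, 110.1 and 116 FPKM in controls and at 138, 126 and 116 in PDN. Gnai2, the Gi subunit found in most cell types, was at 95.7, 94.99 and 92.9 FPKM in controls and at 91.2, 94.8 and 95.6 in PDN. Its highest library exceeded its lowest by a factor of 1.05, and the log2 difference between the groups had a 95% interval of -0.14 to 0.12. Gnai1 followed at 37.6 to 43.2 FPKM and Gnai3 at 32.04 to 41.1, 2 ranges that overlap. Gnaz, whose product Gz differs from its relatives in resisting pertussis toxin, was at 20.4, 18.9 and 17.3 FPKM in controls and at 19.4, 20.6 and 18.7 in PDN. The 5 genes thus ran in the order Gnao1, Gnai2, Gnai1 and Gnai3 together, and Gnaz, in both groups. Their log2 differences ran from -0.04 to 0.06.

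In the Gq class, Gnaq was at 92.8, 87.4 and 95.4 FPKM in controls and at 93.9, 94.4 and 90.5 in PDN. Gna14, a Gq-class gene with a narrower tissue range, was next, at 48.5, 50.7 and 55.9 FPKM in controls and at 48.3, 59.0 and 50.6 in PDN. It stood above Gna11, the other widely expressed Gq-class gene, which was at 11.7 to 13.2 FPKM. No library of 1 of these 3 genes reached the range of another. Their differences between the groups were 0.02, 0.02 and 0.07 on the log2 scale, with intervals that all include 0. Gna15 was below the filter, at 0.563, 0.427 and 0.503 FPKM in controls and at 0.186, 0.259 and 0.368 in PDN. Its control values lay above its PDN values, at a level too low for the test.

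The G12 class had both its genes at moderate levels. Gna12 was at 41.7, 44.3 and 40.2 FPKM in controls and at 39.4, 37.6 and 42.4 in PDN, and Gna13 at 27.8, 31.1 and 31.6 in controls and at 29.7, 32.04 and 30.2 in PDN. The log2 differences were -0.08 ± 0.07 and 0.02 ± 0.07 (SE). The alpha subunits of sensory transduction outside touch and pain were close to absent: Gnat1 of rods, Gnat2 of cones and Gnat3 of taste cells stayed at or below 0.130 FPKM in every library and were listed at 0 in at least 1. Each lies beside an abundant Gi gene in the file: Gnat1 41994 bases from Gnai2, Gnat2 6774 bases from Gnai3 and Gnat3 341872 bases from Gnai1.

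**Figure D4:**
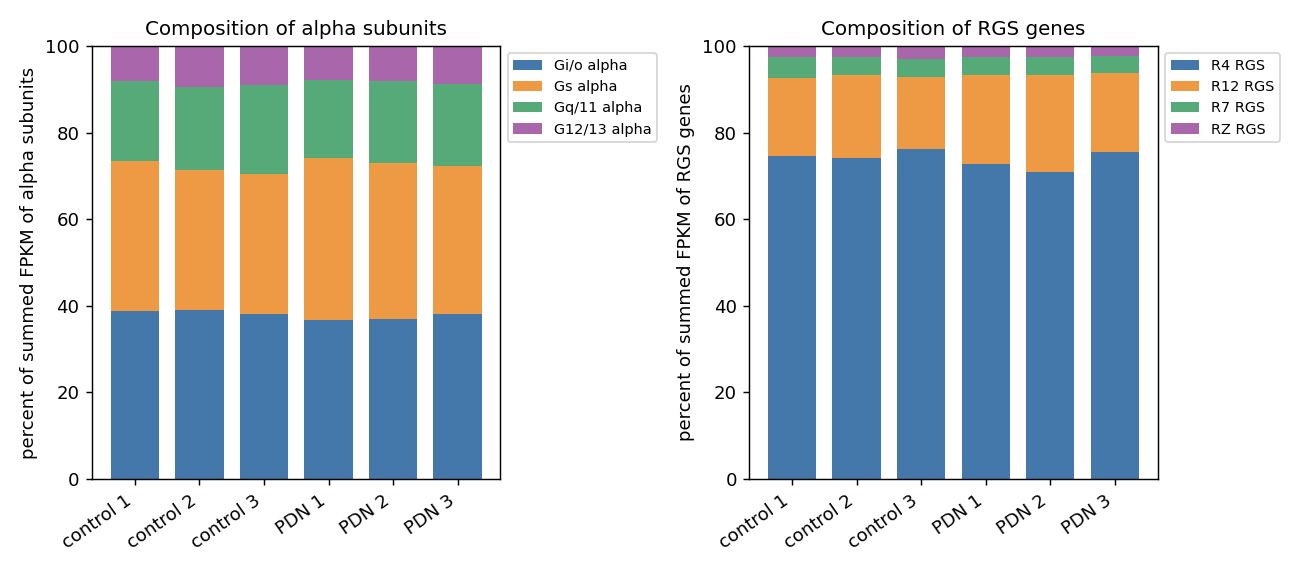
Share of the summed FPKM (percent, vertical axes from 0 to 100) of each alpha subunit class and of each RGS subfamily, 1 bar per library. The Gs share is 32.3% to 34.6% in controls and 34.3% to 37.4% in PDN, and R4 genes hold 70.9% to 76.3% of the RGS FPKM in every library.

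Beta subunits were dominated by Gnb1, at 319.9, 334 and 345 FPKM in controls and at 331, 352 and 333 in PDN, which was 68.4% to 70.3% of the beta FPKM. Gnb2 was at 93.7, 89.5 and 95.7 FPKM in controls and at 88.9, 92.8 and 92.6 in PDN. Their log2 differences were 0.02 ± 0.06 and -0.02 ± 0.06 (SE). Gnb4 ranged from 25.8 to 36.8 FPKM and overlapped Gnb5 in level. Gnb5, the divergent subunit that pairs with R7 RGS proteins in place of a gamma subunit, was at 24.6, 27.0 and 27.4 FPKM in controls and at 22.6, 27.0 and 26.0 in PDN. Gnb3, the subunit of cones, stayed at or below 0.351 FPKM. None of the 4 tested beta genes had an unadjusted p under 0.05.

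Gamma subunits carry the lipid anchor of the pair. Gng2 was the most abundant, at 72.5, 62.4 and 71.7 FPKM in controls and at 69.5, 72.7 and 65.0 in PDN, which was 42.3% to 50.6% of the gamma FPKM. Gng10 was next in most libraries, at 26.1, 28.6 and 26.0 FPKM in controls and at 21.6, 26.5 and 27.4 in PDN. Gng3, whose values may hold fragments of other genes as described below, exceeded Gng10 in control 3 and PDN 1. It held 7.20% to 21.4% of the gamma FPKM, so the gamma sum and the Gng2 share depend on it. Gng4, Gng5 and Gng7 lay between 3.95 and 10.5 FPKM, and Gng8, a gene of olfactory neurons, between 1.79 and 2.68. Gng13 of taste and olfactory cells did not exceed 0.506 FPKM, Gng14 was above 0 in 2 libraries, both controls, and Gngt1 of rods was listed at 0 in every library.

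Gng11 (ENSRNOG00000047914, chromosome 4, 28989115 to 28993621), a farnesylated gamma subunit, was at 4.20, 5.13 and 4.49 FPKM in controls and at 2.62, 3.69 and 3.76 in PDN. Every PDN library lay below every control. The log2 difference was -0.37 ± 0.13 (SE), with a 95% interval of -0.68 to -0.07, an unadjusted p of 0.0237 and an adjusted one of 0.999 from limma. Leaving out PDN 1, its lowest library, gave -0.244. Gngt2, a gamma gene of cones and of some blood cells, was at 0.963, 1.41 and 1.41 FPKM in controls and at 0.599, 0.664 and 1.18 in PDN, and Gng12 at 4.28, 2.13 and 4.25 in controls and at 2.82, 2.17 and 1.96 in PDN. The groups overlapped for both. These 2 were chosen after their values were seen, and their unadjusted p-values were 0.0765 and 0.0881.

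Most markers of vessels and macrophages had lower estimates in PDN, as did 7524 of all 13282 tested genes, and in bulk tissue fewer cells of a type and less RNA per cell cannot be told apart. Of 7 tested endothelial markers 6 had a lower estimate, with a summed level of 50.3 to 64.3 FPKM in controls and 49.5 to 59.1 in PDN. Of 8 pericyte and smooth muscle markers 7 had a lower estimate, with sums of 61.7 to 73.5 and 44.9 to 65.8 FPKM. Macrophage markers had a lower estimate for 7 of 8 tested, with sums of 42.5 to 56.4 and 32.3 to 43.7 FPKM over 10 genes. Of these 8, 4 (50%) had an unadjusted p under 0.05 in limma, all lower, against 4.72% of all tested genes. The share was 42.9% for endothelial markers, not all of them lower, and 25% for pericyte and smooth muscle markers. None passed the adjusted threshold. No gene of these 3 lists was at 0 in any library. Lower estimates were also had by 6 of 8 satellite glia markers, 5 of 8 Schwann cell markers, 6 of 6 fibroblast markers and 4 of 4 tested red cell markers, where the Schwann cell share is near that of all tested genes. An unadjusted p under 0.05 in limma, always with lower values, was had by 37.5% of the satellite glia markers and 33.3% of the fibroblast markers. The share was 50% for tested red cell markers and 12.5% for Schwann cell markers. It was 0% for neuronal, skeletal muscle and tested lymphocyte markers. The part of these cell types in the values of Gng11, Gngt2, Gna15 and Rgs5 was not tested.

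Most RGS RNA came from a single gene. Rgs4, an R4 protein that acts on Gi/o and Gq subunits, was at 347, 326 and 347 FPKM in controls and at 339, 318 and 375 in PDN, and held 54.9% to 60.0% of all RGS FPKM. Its groups overlapped throughout, with a log2 difference of 0.01 ± 0.08 (SE) and a 95% interval of -0.17 to 0.20. Rgs3, of the same subfamily, was at 66.9, 54.7 and 60.9 FPKM in controls and at 60.5, 60.5 and 60.2 in PDN. Rgs5, best known as a pericyte gene and the neighbour of Rgs4 at a distance of 51781 bases, was at 19.3, 23.2 and 20.0 FPKM in controls and at 14.4, 18.02 and 21.8 in PDN. Its log2 difference was -0.21 ± 0.15 (SE), with overlapping groups, and was -0.064 without PDN 1, -0.131 without control 2 and -0.347 without PDN 3.

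Rgs2, an R4 protein with a preference for Gq, was at 10.9, 11.9 and 11.3 FPKM in controls and at 10.2, 10.3 and 10.4 in PDN. Its PDN values lay below its control values, with a log2 difference of -0.13 ± 0.07 (SE), a 95% interval of -0.28 to 0.03 and an unadjusted p of 0.0908. The remaining R4 genes were rare. Rgs8, Rgs16 and Rgs18 passed the filter at 0.423 to 2.16 FPKM, and the leukocyte gene Rgs1, below it, was at 0.705, 0.389 and 0.476 FPKM in controls and at 0.690, 0.962 and 0.484 in PDN. Rgs13 and Rgs21, the latter a gene of taste cells, were listed at 0 in every library. On chromosome 13 the file places Rgs2, Rgs13, Rgs1, Rgs21 and Rgs18 in a row, and Rgs18, the next highest after Rgs2, reached 2.16 FPKM.

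In the R12 subfamily Rgs10 (ENSRNOG00000042592, chromosome 1, 199782078 to 199823386), a short protein that acts on Gi/o subunits, was the leading gene. It was at 104, 103 and 90.8 FPKM in controls and at 116, 125 and 109 in PDN, so the groups did not overlap. Mean FPKM ± SD was 117 ± 8.19 for PDN against 99.1 ± 7.20 for control (n = 3 each). The log2 difference was 0.23 ± 0.08 (SE), with a 95% interval of 0.04 to 0.43, an unadjusted p of 0.0227 and an adjusted p of 0.999 in limma. Rgs10 is also made by macrophages, whose marker sums are given above, and their part in its value was not tested. Its share of RGS FPKM was 15.7% to 18.2% in controls and 17.4% to 21.6% in PDN, ranges that overlap. Rgs12, a large multidomain relative, was at 3.84, 4.17 and 3.86 FPKM in controls and at 3.79, 3.92 and 4.36 in PDN. Rgs14 was below the filter, at 0.651 to 0.993 FPKM in controls and 0.483 to 0.645 in PDN.

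R7 proteins, which form stable pairs with the Gnb5 product, were led by Rgs7, at 19.1, 15.2 and 15.5 FPKM in controls and at 15.2, 16.5 and 16.0 in PDN. Rgs6 was at 9.39, 7.60 and 7.998 FPKM in controls and at 7.92, 7.03 and 7.59 in PDN. Rgs9, the R7 gene of photoreceptors and the striatum, was below the filter at 0.713, 0.499 and 0.706 FPKM in controls and 0.554, 0.683 and 0.741 in PDN. Of the RZ subfamily, which prefers Gz and Gi, Rgs17 was at 9.26, 9.87 and 10.99 FPKM in controls and at 10.1, 8.81 and 9.07 in PDN, and Rgs19 at 4.11, 3.57 and 4.90 in controls and at 3.90, 3.89 and 4.35 in PDN. Rgs20, also of the RZ subfamily, was at 0.972 to 1.24 FPKM. Rgs22, a gene of the testis outside these subfamilies, did not pass the filter, at 0.416 to 1.14 FPKM. Within each of these pairs, Rgs7 exceeded Rgs6 and Rgs17 exceeded Rgs19 in every library, while the groups overlapped for all 4.

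The second question was whether the members differ between PDN and control as a group of genes. Of the 40 tested, 0 passed an adjusted p of 0.05 in limma, as was the case for all 13282 tested genes (0%), and the smallest adjusted p of a member was 0.999. Before adjustment, 3 members (7.5%) had a p under 0.05, against 4.72% of all tested genes. Gnal and Rgs10 were the 2 with higher values in PDN, where 1.83% of all genes lay, and Gng11 was the 1 with lower values, where 2.89% lay. Groups did not overlap for 4 of the 40 (10%), Gnal, Rgs10, Gng11 and Rgs2, against 9.93% of all tested genes. The share without overlap is near the background, and the unadjusted count rests on 3 genes.

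Estimates of the members were small in both directions. They were higher in PDN for 19 and lower for 21 (5758 and 7524 of all tested genes), with a median log2 difference of -0.0085 against -0.016 over all tested genes. The largest were -0.43 for Gng12 and 0.38 for Rgs8. By class, 9 of 12 tested alpha genes had a higher estimate, 3 of 4 beta and 6 of 10 gamma genes a lower one, and 9 of 14 RGS genes a lower one. The 95% interval lay within 0.5 of 0 on the log2 scale for 32 of the 40 members (80%), against 84.6% of all tested genes, and within 0.25 for 15 (37.5%), against 27.7%. For those genes larger differences than the bound lie outside the interval. For the other 8 the interval reaches beyond 0.5. For Gng3 it is wide, and for Gng11 (-0.68 to -0.07) the estimate itself lies further from 0.

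**Figure D5:**
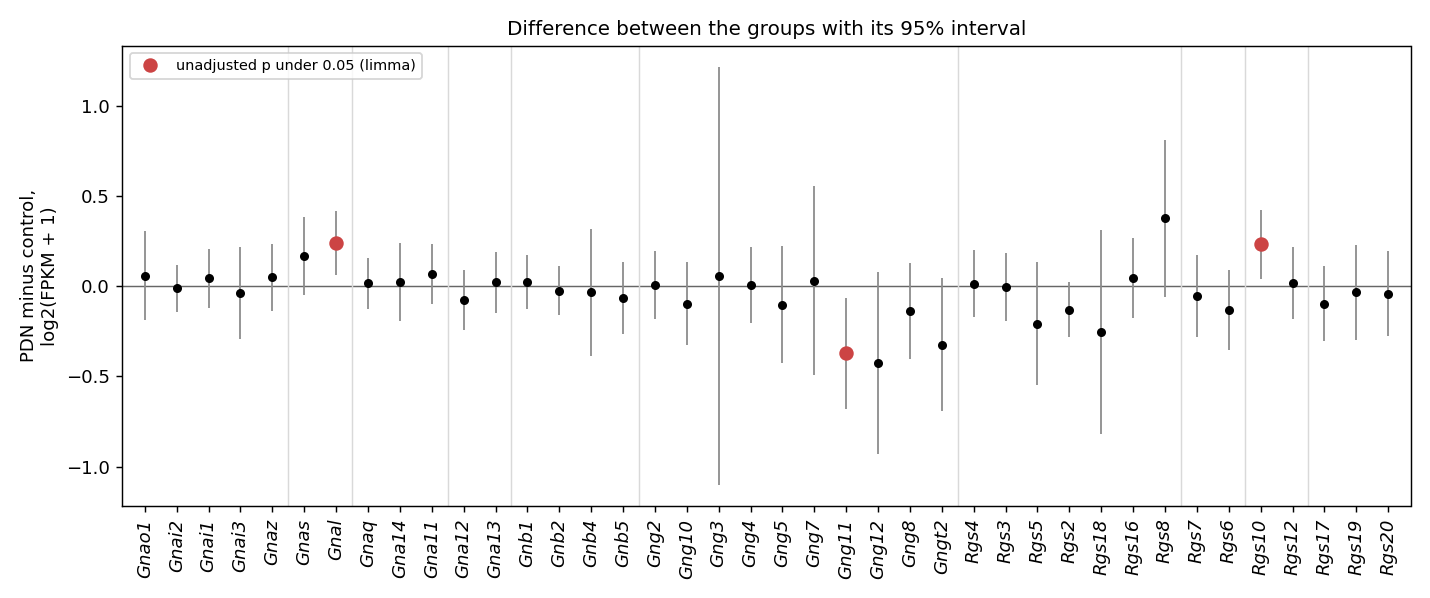
Differences of the 40 tested members (points), PDN minus control, as log2(FPKM + 1) on the vertical axis, with the 95% interval from limma (bars), ordered as in the plot of levels. The intervals of Gnal, Rgs10 and Gng11, in red, exclude 0 before adjustment, and Gng3 has the widest, from -1.10 to 1.22.

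Members differed in how far their values spread over the 6 libraries of both groups together. The ratio of the highest to the lowest of the 6 libraries had a median of 1.18 over the 12 tested alpha genes, 1.16 over 4 beta genes, 1.68 over 10 gamma genes and 1.27 over 14 RGS genes, against 1.29 over all tested genes. At a mean of at least 5 FPKM the median was 1.22 over 30 members and 1.24 over all tested genes. The classes were not matched for level. The widest ratio among members with a mean above 5 FPKM was 3.52, for Gng3, a gamma gene of neurons, at 10.3, 11.3 and 36.3 FPKM in controls and at 28.1, 15.8 and 11.03 in PDN. Control 3 and PDN 1 were thus high, in neither group alone. The file gives Gng3 a locus of 80770 bases that shares bases with 9 other genes, whereas RefSeq gives the gene a length of 1767 bases in GRCr8, so its values may hold fragments of other genes.

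Partners that regulate G proteins were listed beside the members. Of 18 such genes listed, 12 were tested and 0 passed the adjusted threshold, with 3 higher and 9 lower estimates. Their median log2 difference was -0.06, against -0.0085 for the members and -0.016 over all tested genes. Ric8a, the chaperone of Gi, Gq and G12 alpha subunits, had a mean ± SD of 45.9 ± 3.13 FPKM for control and 45.8 ± 0.922 for PDN (n = 3 each). Ric8b, the chaperone of Gs and Golf, was at 18.6, 19.2 and 21.1 FPKM in controls and at 21.2, 21.5 and 21.2 in PDN. The PDN values of Ric8b lay just above the controls, with a log2 difference of 0.11 ± 0.07 (SE) and an unadjusted p of 0.140. Gpr158, a membrane protein that binds R7 complexes and was chosen after its values were seen, was at 53.5 ± 4.49 and 54.1 ± 5.82 FPKM. Rgs7bp, another R7 anchor, was not analysed here. Receptor kinases and arrestins, which silence the receptors, had 7 tested genes, 0 passing, 3 higher and 4 lower estimates and a median of -0.05.

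Effectors downstream of the subunits (16 listed, 13 tested) also had 0 genes past the adjusted threshold and a median of -0.01. Of the 13, 1 (7.69%) had an unadjusted p under 0.05 in limma, against 4.72% of all tested genes. Groups did not overlap for 4 of the 13 (30.8%), against 9.93% of all tested genes. These were Pik3cg, Plcb1 and Kcnj5, with lower values in PDN, and Kcnj6, with higher ones. Plcb1, Kcnj5 and Kcnj6, chosen after their values were seen, had unadjusted p-values of 0.0707, 0.122 and 0.0763. Plcb1, a phospholipase C that Gq activates, was at 8.75, 8.69 and 8.84 FPKM in controls and at 7.75, 8.22 and 7.49 in PDN. Kcnj5 and Kcnj6 encode potassium channel subunits that beta-gamma pairs open, and had means of 2.16 and 2.41 FPKM in controls and 1.66 and 2.93 in PDN. Pik3cg, the kinase of leukocytes that beta-gamma pairs activate, was at 1.91, 1.07 and 2.23 FPKM in controls and at 0.577, 0.760 and 1.03 in PDN. The Pik3cg groups did not overlap, with a log2 difference of -0.59 ± 0.19 (SE), an unadjusted p of 0.0145 and an adjusted p of 0.999. Macrophage marker sums are given above, and their part in this value was not tested.

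Receptors upstream of the subunits were grouped by the alpha class they couple to. Of 18 tested Gi/o-coupled receptors 2 (11.1%) had an unadjusted p under 0.05, against 4.72% of all tested genes, both higher in PDN, where 1.83% of all genes lay. Cnr1, the cannabinoid receptor of neurons, was at 7.13, 7.37 and 7.06 FPKM in controls and at 10.99, 9.53 and 9.11 in PDN, with a log2 difference of 0.41 ± 0.09 (SE) and an adjusted p of 0.707. Oprk1, the kappa opioid receptor, was at 2.28, 2.33 and 2.92 FPKM in controls and at 3.74, 4.45 and 2.69 in PDN, with an adjusted p of 0.999 and overlapping groups. Of 11 tested Gs-coupled receptors 2 (18.2%) had an unadjusted p under 0.05 in limma, against 4.72% of all tested genes. Both were lower in PDN, where 2.89% of all genes lay. Among these 2 was Gpr3, an orphan receptor that signals without a ligand. It was at 1.25, 1.18 and 1.23 FPKM in controls and at 0.871, 0.567 and 0.765 in PDN. Its PDN values lay below its control values, with a log2 difference of -0.36 ± 0.11 (SE), an unadjusted p of 0.0119 and an adjusted one of 0.999 from limma. Of 12 tested Gq-coupled receptors 0 had an unadjusted p under 0.05. No receptor passed the adjusted threshold in limma, and the median log2 differences of the 3 lists were 0.023, 0.0093 and -0.0035.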

How the data were processed

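RNA of 6 libraries, 3 control and 3 PDN rats by title, was sequenced. Per the labels' protocols the libraries were strand-specific and made from total RNA. The authors deposited FPKM values per gene. The aligner, quantifier, annotation and build behind them are not named by the sources used here, nor is any use of strand. A second deposited table, named for read counts, holds whole numbers treated as a score: for 54.5% to 54.8% of genes above 1000 the value equals FPKM times the locus span times 1 constant per library (relative tolerance 0.001). The fragment totals given above follow from these constants only if the score scales with fragment counts, which was not checked. Counting error per gene could not be derived. Earlier results of these data had shown this, so FPKM was the planned measure.

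Members and lists were chosen with earlier results of these data known. Genes reaching 1 FPKM in 3 or more libraries entered a limma 3.58.1 fit of log2(FPKM + 1), run under R 4.3.3 (intensity trend, group as the only term, two-sided), adjusted by Benjamini-Hochberg over 13282 genes. The scale understates changes of low genes. The fit was tested on simulated data with known changes larger than any difference of a tested member. It therefore does not show how the fit performs at the sizes seen here. Values in every library are given for the 2 most abundant members of each subfamily, members with an unadjusted p under 0.05 and 9 chosen genes, 2 of them untested. Gng14 was added to the gamma list from the table, and Rgs11 was not analysed here. Some results on other genes, which the rule would name, are not reported here. RefSeq windows (GRCr8) were matched by symbol for 43 of 54 member names. Those without 1 window were Gnai2, Gnai3, Gnas, Gnat1, Gnat2, Gnaz, Gnb3, Gng8, Gngt2, Rgs20 and Rgs22.

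Alternatives were other pseudocounts (0.1, 0.5), filters, scalings, empirical Bayes settings, array weights, a replicate block, the second table and left-out libraries.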

Additional observations from a re-analysis of the deposited data

How the results depend on the processing

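No member passed the adjusted threshold in limma under any of the 18 alternatives, and the smallest adjusted p of a member was 0.692 (without PDN 3). The count of 3 of 40 members at an unadjusted p under 0.05 in limma became 5 in several alternatives. Without the filter it was 5 of 52 members (9.62%), with Gna15 and Rgs14 among them, against 5.07% of all genes. With the replicate block it was 5 of 40 (12.5%), against 6.39%. With both libraries of highest muscle marker sums (control 2, PDN 3) left out it was also 12.5%, against 4.23%. Leaving out single libraries gave 1 to 5. The count was 1 (Gng11, 2.5%) without control 3 or PDN 2, against 3.79% and 4.57% of all genes. It was 2 (Gnal and Rgs10, 5%) without PDN 1, against 3.48%. It was 5 (12.5%) without control 1, control 2 or PDN 3, against 6.03%, 3.54% and 5.77%. Gnal and Rgs10 were among the 5 each time. The median log2 difference of the members was 0.0136 with median-of-ratios scaling and lay between -0.0294 and -0.0014 with single libraries left out. For all of these the cause was not tested.

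Of 25 named and tested members, 10 kept the sign of their difference in all alternatives that tested them, with ranges of 0.183 to 0.29 for Gnal, 0.173 to 0.31 for Rgs10, -0.459 to -0.244 for Gng11, 0.106 to 0.24 for Gnas, -0.154 to -0.097 for Rgs2, -0.347 to -0.064 for Rgs5, -0.192 to -0.049 for Rgs6, -0.148 to -0.034 for Rgs17, -0.123 to -0.039 for Gna12 and -0.06 to -0.001 for Gnb2. Leaving out 1 library moved 7 of these by over 1.5 times: Gnas, Gng11 and Rgs5 without PDN 1, Rgs6 without control 1, Gna12 without control 2, and Rgs17 and Gnb2 without control 3, among others. The others had differences near 0 that changed sign. With median-of-ratios scaling Gnai2 was at 0.012 and Rgs3 at 0.015, with upper-quartile scaling at 0.007 and 0.011, and with array weights at 0.002 and 0.005, with Gng2 at -0.01. In the whole-number table Gng2 was at -0.032, Rgs12 at -0.008 and Rgs3 at 0.034. Without control 2 and PDN 3 together Gng2 was at -0.021 and Rgs4 at -0.08.

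When each library was left out, the ranges of those that changed sign were -0.033 to 0.056 for Gna13, -0.061 to 0.081 for Gna14, -0.024 to 0.01 for Gnai2, -0.009 to 0.159 for Gnao1, -0.018 to 0.044 for Gnaq, -0.005 to 0.106 for Gnaz, -0.004 to 0.05 for Gnb1, -0.113 to 0.009 for Gnb5, -0.159 to 0.005 for Gng10, -0.063 to 0.048 for Gng2, -0.03 to 0.052 for Rgs12, -0.122 to 0.063 for Rgs19, -0.08 to 0.063 for Rgs3, -0.05 to 0.068 for Rgs4 and -0.11 to 0.045 for Rgs7.

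Same-numbered libraries did not deviate together (correlations of 0.171, -0.12 and -0.0865 across genes), so the replicate numbers were not taken as pairs, and not every library correlated best with its own number. The replicate block moved the count of all tested genes at an unadjusted p under 0.05 from 627 to 849, and 0 genes passed the adjusted threshold in it. The number of fragments per gene is unknown, so what depth limits for members under 1 FPKM cannot be stated as an interval.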
